A study of Mus musculus with 2 samples.

Results

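The Mir302 to Mir367 cluster and the Mir290 to Mir295 cluster are the microRNA (miRNA) gene clusters for which mouse pluripotent stem cells are best known, and they were followed here in the embryonic forebrain. The members were chosen by name: Mir302a, Mir302b, Mir302c, Mir302d and Mir367 of the first cluster, and Mir291a, Mir291b, Mir293, Mir294 and Mir295 of the second. All 10 had a row in both tables, among 1973 miRNA genes in all. The data are 2 small-RNA libraries of forebrain from healthy embryos of the B6NCrl strain, with no genotype change or treatment, at embryonic day 16.5. Each library came from total RNA of a separate pool of male and female embryos, 41 of them in the pool of replicate 2. The labels give no size for the pool of replicate 1. They name no second tissue, stage or condition, so the questions addressed are which members the forebrain libraries held, at what level, and whether the pools differed.

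A miRNA gene is transcribed as a hairpin, from which a mature arm of about the length of the sequences printed here is loaded into an Argonaute protein. The loaded arm finds messenger RNAs mainly through its seed, bases 2 to 8 from the 5′ end. In embryonic stem cells the Mir290 cluster is the dominant miRNA locus, and the Mir302 cluster becomes prominent as cells leave the naive state for the primed, epiblast-like state. Members of both clusters promote the rapid cell cycle of stem cells and aid reprogramming of somatic cells, and both loci are known to be shut down as tissues differentiate. In the early neural tube, Mir302 activity has been linked to the timing of neural differentiation.

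The sequences of the 3′ arms are shown first because they decide which members share targets and whether reads can be told apart. They were read from RefSeq on the GRCm38.p6 assembly, and the seed is in capitals. Mir302a had no 3′ arm among the entries used, so it is missing from this list.
miR-302b-3p: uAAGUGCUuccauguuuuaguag
miR-302d-3p: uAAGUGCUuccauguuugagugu
miR-302c-3p: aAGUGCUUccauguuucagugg
miR-291a-3p: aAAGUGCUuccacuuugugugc
miR-294-3p: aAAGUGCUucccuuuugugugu
miR-295-3p: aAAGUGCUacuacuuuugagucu
miR-291b-3p: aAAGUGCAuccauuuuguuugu
miR-293-3p: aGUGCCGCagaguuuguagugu
miR-367-3p: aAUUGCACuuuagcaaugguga

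Of these arms, 5 shared the seed AAGUGCU: those of Mir302b and Mir302d on chromosome 3 and those of Mir291a, Mir294 and Mir295 on chromosome 7. Both clusters therefore hold carriers of the same seed, although they lie on different chromosomes. The annotated arm of Mir302c begins 1 base later on the same stretch, which gives it the seed AGUGCUU. The 3′ arms of Mir302b, Mir302c and Mir302d have 16 bases in common, aagugcuuccauguuu, and differ only in the bases after it and in whether a u precedes it. Mir291b, Mir293 and Mir367 each had a 3′ seed that no other member carried. The 5′ arms are shown for Mir302a and its neighbours, since they form a second group with a common seed.
miR-302b-5p: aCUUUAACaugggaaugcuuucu
miR-302c-5p: gCUUUAACaugggguuaccugc
miR-302d-5p: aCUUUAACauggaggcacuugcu
miR-302a-5p: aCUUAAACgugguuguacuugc

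The arms of Mir302b, Mir302c and Mir302d shared the seed CUUUAAC, and that of Mir302a read CUUAAAC. The tables count reads per gene, so the arms of a hairpin cannot be separated in the values that follow.

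The Mir302 cluster is compact. Its 5 hairpins lie on the plus strand of mm10 at chr3:127545228-127545807, a span of 580 bases, in the order Mir302b, Mir302c, Mir302a, Mir302d and Mir367. The gaps between neighbouring hairpins were 61, 65, 59 and 43 bases. By GENCODE M21 the whole cluster is inside an intron of Larp7, which is transcribed from the other strand and encodes a protein that binds the 7SK RNA. The Mir290 cluster spans 2216 bases on the plus strand at chr7:3218626-3220841. All 5 of its members lie in the annotated untranslated part of an exon of Nlrp12, an innate immune gene that is also transcribed from the opposite strand. None of the 10 members had a read on the strand opposite to the hairpin in either library.

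Depth was 5060112 gene-strand counts in replicate 1 and 4158686 in replicate 2. Levels are counts per 1000000 gene-strand counts (CPM). Since multimapping reads stand in a row of their own, a gene's count is read as uniquely placed reads. A read covers most of a mature arm, so counts were not divided by hairpin length, and unequal capture of different arms was not tested. A count of 0 allows up to 0.593 CPM in replicate 1 and 0.721 CPM in replicate 2, with a limit of 3 counts, and intervals and limits cover counting error only. Multimapping reads, 40.5% of the total in replicate 1 and 43.3% in replicate 2, are outside these values. No member shared a stretch of 22 bases with another annotated miRNA gene. The longest shared stretches among the members were 20 bases, between Mir302a and Mir302b and between Mir291a and Mir291b. The labelled tissue was checked with 10 neural miRNA genes, all of which had counts in both libraries and which together reached 30686 CPM in replicate 1 and 28681 CPM in replicate 2. Mir137, a regulator of neuronal maturation, led them at 12348 ± 1260 CPM (SD, n = 2). The 3 Mir124a copies, which share sequence with one another, were at 1.07 to 4.27 CPM by uniquely placed reads. Mir9-2 was also low, at a mean of 3.62 CPM, while Mir9-3 was at 717 CPM. Of the 10 neural genes, 7 share at least 22 bases with another miRNA gene.

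The forebrain libraries held a low but clearly counted signal of the Mir302 hairpins and almost none of the Mir290 hairpins. The Mir302 to Mir367 members summed to 1493 counts in replicate 1 and 643 in replicate 2, or 295 and 155 CPM. Their mean was 225 ± 99.3 CPM (SD, n = 2). The Mir290 to Mir295 members summed to 29 and 22 counts, or 5.73 and 5.29 CPM, with a mean of 5.51 ± 0.312 CPM. The first cluster was thus 51.5-fold above the second in replicate 1 and 29.2-fold above it in replicate 2. Together the 10 members took 301 CPM in replicate 1 and 160 CPM in replicate 2, against 249634 ± 25732 CPM for Mir99a, the gene with the most counts.

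**Figure D1:**
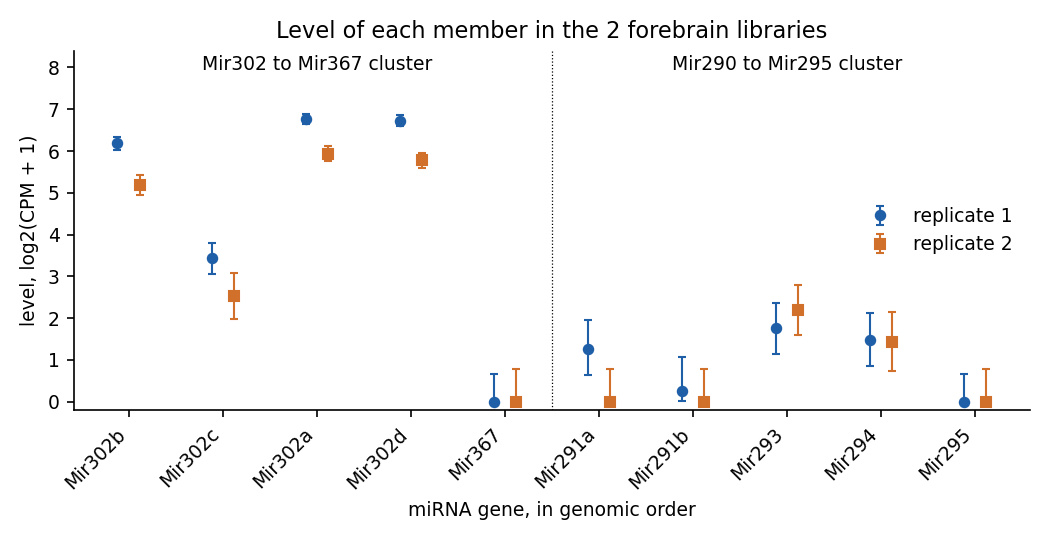
Level of each of the 10 members as log2(CPM + 1) in replicate 1 (circles) and replicate 2 (squares), in genomic order, with exact Clopper-Pearson 95% intervals, or the limit of 3 counts where the count is 0. Mir302a, Mir302b and Mir302d lie well above all Mir290 members in both libraries, Mir302c between them, and Mir367 and Mir295 at 0. In replicate 2 the interval of Mir302c overlaps those of Mir293 and Mir294.

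Mir302a was the most abundant member. It had 548 counts in replicate 1 and 251 in replicate 2, or 108 and 60.4 CPM. By mean level it ranked 201st of 1973 genes, of which 703 had a count in either library. Mir302d, the next hairpin of the cluster, had 532 and 224 counts, or 105 and 53.9 CPM. The levels of these neighbours were nearly equal, with a ratio of Mir302a to Mir302d of 1.03 in replicate 1 and 1.12 in replicate 2. Mir302b, the first hairpin, had 363 and 148 counts, or 71.7 and 35.6 CPM, and was below Mir302a by 1.51-fold and 1.70-fold. Its interval did not overlap that of Mir302a in either library. The order Mir302a, Mir302d, Mir302b was the same in both libraries, but the intervals of Mir302a and Mir302d overlapped in each.

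Mir302c stood apart from the other Mir302 hairpins. It had 50 counts in replicate 1 and 20 in replicate 2, or 9.88 and 4.81 CPM. Mir302a was 10.96-fold above it in replicate 1 and 12.6-fold above it in replicate 2. The hairpin lies between Mir302b and Mir302a, so the low value was flanked by high ones on both sides. Its 3′ arm shares the 16 bases printed above with its neighbours, and its longest stretch shared with any annotated miRNA gene was also 16 bases, no longer than those of Mir302a at 20 or Mir302d at 17. Whether shorter reads were lost to the multimapping class was not tested.

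Mir367, the last hairpin of the cluster, had no count in either library. It lies 43 bases after Mir302d, which had 532 and 224 counts. Taking 3 counts per library as the floor of Mir367, Mir302a was at least 183-fold higher in replicate 1 and at least 83.7-fold higher in replicate 2. Even against the weakly counted Mir302c, the bounds on the same floor were 16.7-fold and 6.67-fold. Its longest stretch shared with another annotated miRNA gene was 11 bases, the shortest among the members of its cluster. The rest of the genome was not compared, and loss of Mir367 reads to the multimapping class was not tested.

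**Figure D2:**
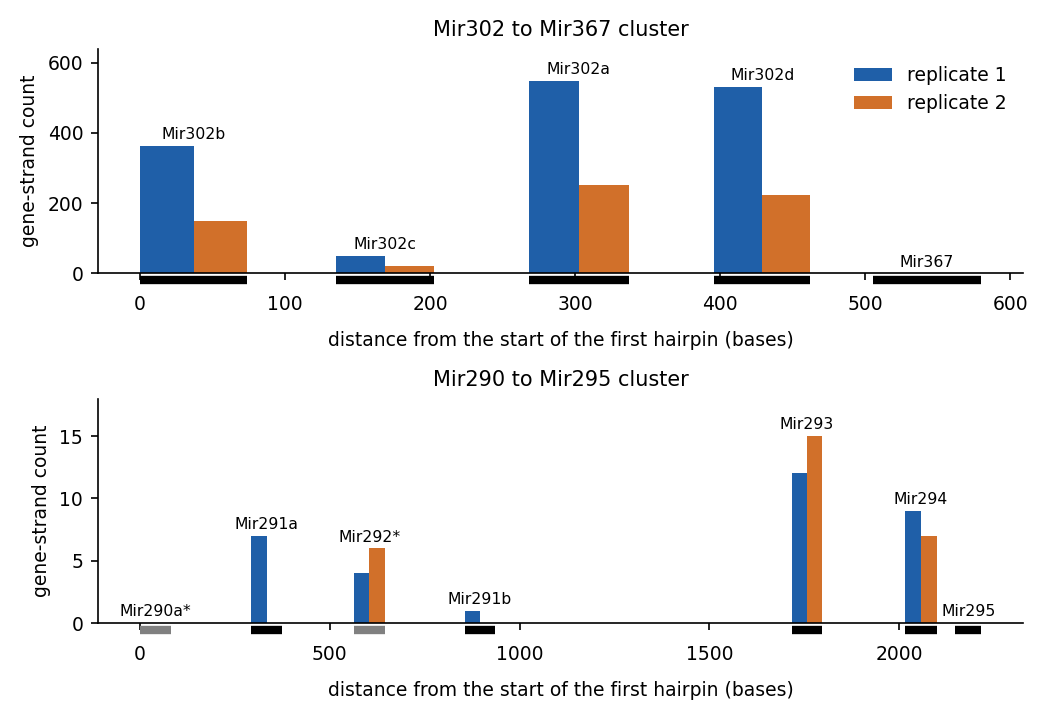
Gene-strand counts of each hairpin, replicate 1 in blue and replicate 2 in orange, against the distance in bases from the start of the first hairpin, with the hairpins as black bars. Grey bars and an asterisk mark genes of the Mir290 cluster that are not members, and the vertical scales differ: up to 548 counts in the Mir302 cluster and up to 15 in the Mir290 cluster.

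In the Mir290 cluster every value was near the counting limit. Mir293, whose 3′ seed is not that of the other members, had the most, with 12 counts in replicate 1 and 15 in replicate 2, or 2.37 and 3.61 CPM. Mir294, a cell-cycle miRNA of embryonic stem cells and a carrier of AAGUGCU, had 9 and 7 counts, or 1.78 and 1.68 CPM. The exact 95% intervals of Mir293 and Mir294 overlapped in both libraries, so their order is not resolved. Mir291a had 7 counts in replicate 1 and 0 in replicate 2, and Mir291b 1 and 0. Mir295 had none in either library. Only 2 of the 5 members thus had a count in both libraries, Mir293 and Mir294.

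The remaining genes of this locus also had few counts. Mir292 had 4 and 6 counts, and Mir290a had 0 in both. Each has its longest shared stretch, over 22 bases, with its antisense partner, Mir292b and Mir290b. Those partners overlap the same place on the other strand, and no row was used here for them. Neither Mir292 nor Mir290a had a read on the opposite strand in either library.

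The AAGUGCU seed was found on few annotated arms, and Mir302b and Mir302d held nearly all counts of the genes tallied for it. Of the genes with a mature entry in RefSeq, 5 measured genes carried it and all 5 are members. Mir302a had only a 5′ arm among the entries used, so its 3′ seed was not read and it is not in this tally. Its 548 and 251 counts are outside these sums. If its 3′ arm carries AAGUGCU, the number of carriers and the sums are too low. The 5 genes summed to 911 counts in replicate 1 and 379 in replicate 2, or 180 and 91.1 CPM. Mir302b and Mir302d held 98.2% of these counts in replicate 1, with an exact Clopper-Pearson 95% interval of 97.2% to 99.0%, and 98.2% in replicate 2, with an interval of 96.2% to 99.3%. Mir294 and Mir291a held the rest. Since every gene in the tally is a member, these shares only set Mir302 members against Mir290 members. A mature sequence was found in RefSeq for 916 of the 1973 genes, so other carriers may be missing.

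Other genes with the seed of Mir367 on an annotated arm were abundant in the forebrain. AUUGCAC was carried by 7 measured genes, which summed to 36272 counts in replicate 1 and 32092 in replicate 2, none of them from Mir367. With the limit of 3 counts, its share was at most 0.00827% in replicate 1 and 0.00935% in replicate 2. Mir92b, abundant in neural progenitors, led the carriers at 3911 and 4140 CPM. Mir92-1, of the Mir17 cluster, followed at 2140 and 2444 CPM and shares 22 bases with another gene. Mir25, which lies in an intron of Mcm7, was at 665 and 648 CPM. Mir32 was at 188 and 232 CPM and Mir363 at 196 and 172 CPM. The 3′ or 5′ arms with this seed are set beside that of Mir367 to show that they differ from it in the bases after the seed.
miR-367-3p: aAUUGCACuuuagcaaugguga
miR-92b-3p: uAUUGCACucgucccggccucc
miR-25-3p: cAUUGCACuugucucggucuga
miR-32-5p: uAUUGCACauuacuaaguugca
miR-363-3p: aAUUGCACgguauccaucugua

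**Figure D3:**
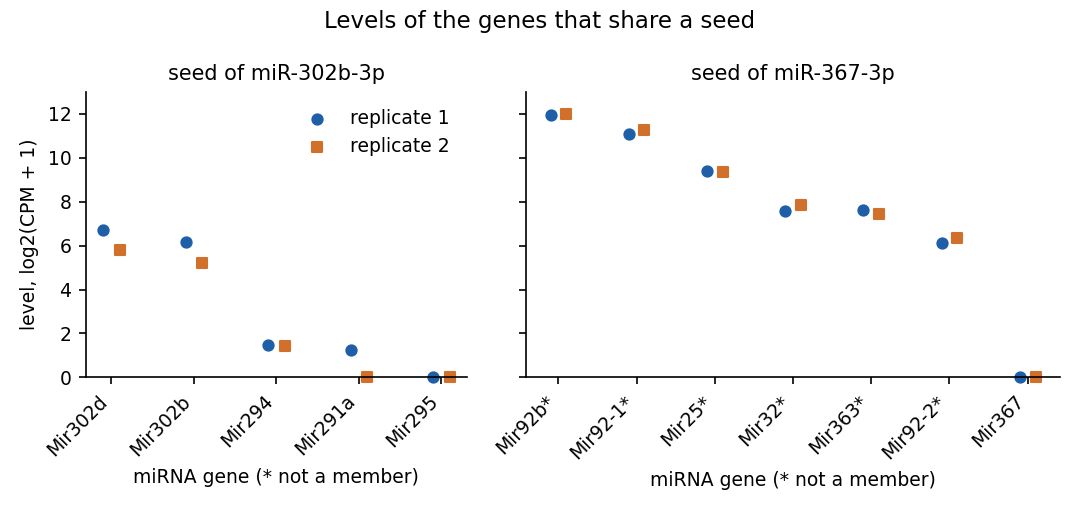
Levels as log2(CPM + 1) in replicate 1 (circles) and replicate 2 (squares) of the measured genes that carry the seed of miR-302b-3p (left) and of miR-367-3p (right), ordered by mean level. Asterisks mark genes that are not members. All carriers on the left are members, and on the right Mir367 is the one carrier at 0. Mir302a, whose 3′ arm had no entry, is not shown.

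The first 6 bases of the Mir302 seed, AAGUGC, were also present in abundant miRNAs, but shifted by 1 base. This search of bases 1 to 9 was chosen after the counts had been seen. With the stretch starting at base 2, as in Mir302b, 8 genes summed to 747 CPM in replicate 1 and 685 CPM in replicate 2, and 6 of them are members. Most of that sum was Mir350, at 567 and 594 CPM, whose 5′ arm has the seed AAGUGCA of miR-291b-3p. These are counts of whole genes, so the part that came from the arm with the stretch is not known. With the stretch starting at base 3, 8 genes summed to 63416 and 61771 CPM, and none is a member. Mir17, a progenitor-proliferation miRNA, led these at 27023 ± 1052 CPM (SD, n = 2), and Mir93 followed at 15041 ± 272 CPM. The arms of Mir302b, Mir350 and Mir17 show the shift.
miR-302b-3p: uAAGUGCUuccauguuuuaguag
miR-350-5p: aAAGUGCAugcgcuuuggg
miR-17-5p: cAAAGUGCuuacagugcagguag

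The Mir302 hairpins were lower in replicate 2 than in replicate 1, all 4 that had counts, and by similar amounts. The summed level was 1.91-fold higher in replicate 1, with 295 against 155 CPM. As log2 ratios of replicate 2 to replicate 1, after TMM scaling (the trimmed mean of M values), Mir302b was at -0.86, Mir302c at -0.87, Mir302a at -0.70 and Mir302d at -0.82. The ratios spanned 0.18 on the log2 scale, less than the difference of any of them from 0. In the 2 Mir290 to Mir295 members that could be tested the ratio was 0.74 for Mir293 and 0.09 for Mir294.

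The exact binomial test sets 1 library against the other, says nothing of a condition, and takes every read as independent. It called 4 of the 6 tested members lower in replicate 2 and 0 higher, where 45.3% of the 466 tested genes were called, 21.9% as lower and 23.4% as higher. Adjusted over all tested genes, p was 3.47e-10 for Mir302a, 9.20e-10 for Mir302b, 8.59e-13 for Mir302d and 0.0464 for Mir302c by the exact binomial test. It was 0.302 for Mir293 and 1 for Mir294, so no difference was detectable for them at this depth. The median log2 ratio was -0.76 over the 6 tested members and 0.01 over all tested genes. The other 4 members, with a summed count under 10, were not tested. The 4 called hairpins lie within 580 bases and may share a transcript, so they are not independent observations.

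Allowing for spread between pools ended these calls. The spread could be taken only from the same 2 libraries as a single group, so the difference tested also enters it, and the lack of a call does not show that the pools were alike. With that common dispersion, an exact test in edgeR called 0 of the 6 members and 0.0% of all 466 genes. Its adjusted p was 0.783 for Mir302b and Mir302d, 0.84 for Mir302a and 0.898 for Mir302c. At an unadjusted p under 0.05 it had 26 genes, 2 of them members. Without the TMM scaling every log2 ratio moved by -0.14, all 4 Mir302 hairpins were still called, and 155 of 222 calls over all genes were lower in replicate 2, against 102 of 211 with TMM.

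**Figure D4:**
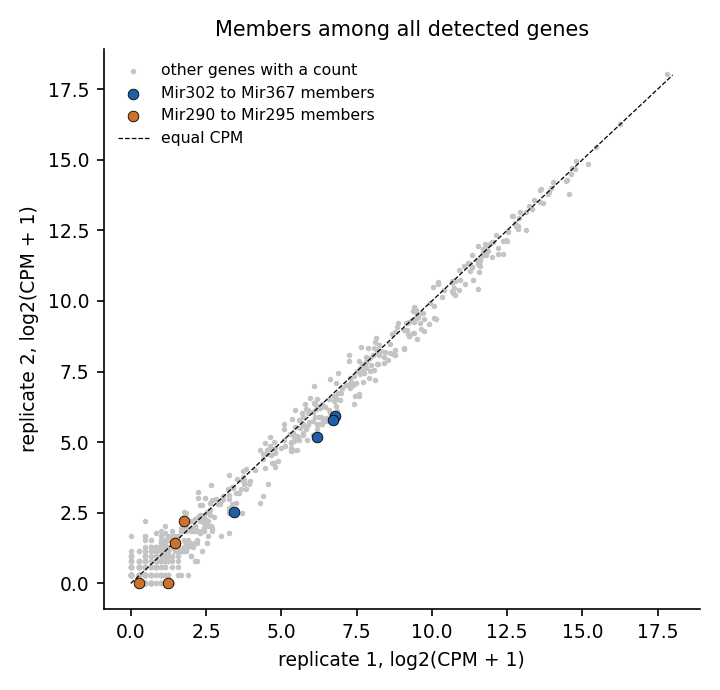
Level of every gene with a count as log2(CPM + 1) in replicate 1 (x axis) and replicate 2 (y axis), with the Mir302 to Mir367 members in blue, the Mir290 to Mir295 members in orange and the line of equal CPM dashed. The 4 Mir302 hairpins lie below the line, and the Mir290 members lie among the genes of few counts.

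Among all 466 tested genes, Mir302c had the 25th lowest log2 ratio, Mir302b the 27th, Mir302d the 29th and Mir302a the 40th. Among the 273 genes that reached 100 counts in each library, Mir302b had the 3rd lowest, Mir302d the 4th and Mir302a the 9th. Among 16 genomic clusters with at least 3 tested genes, the median of the Mir302 cluster, -0.84, was the lowest and the next was -0.44. These ranks describe the 2 libraries.

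While the sum of the cluster differed between the libraries, its make-up was close. Mir302a held 36.7% of the cluster's counts in replicate 1 and 39.0% in replicate 2. Mir302d held 35.6% and 34.8%, Mir302b 24.3% and 23.0%, and Mir302c 3.35% and 3.11%. For each of these 4 hairpins, the share in either library lay inside the exact 95% interval of the other. For Mir302c the intervals were 2.496% to 4.39% in replicate 1 and 1.91% to 4.76% in replicate 2. Mir367 held 0%, which allows up to 0.201% in replicate 1 and 0.467% in replicate 2 with the limit of 3 counts.

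**Figure D5:**
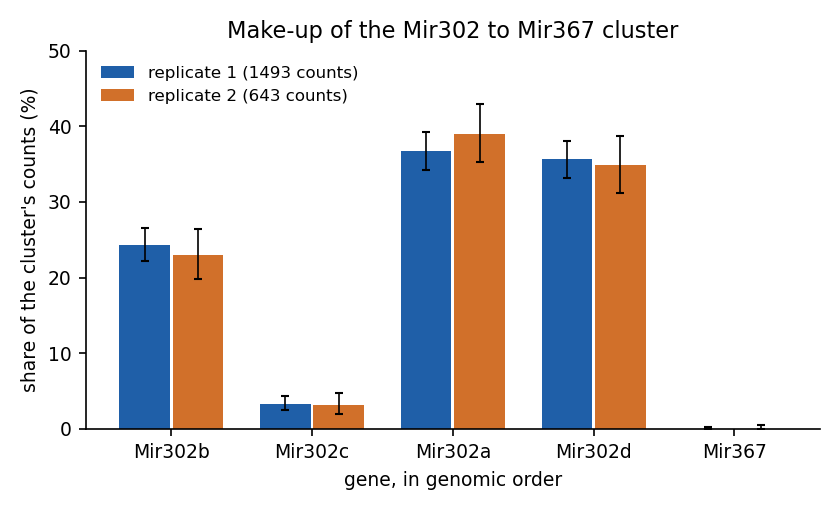
Share of the Mir302 to Mir367 cluster's counts held by each hairpin in percent, replicate 1 (1493 counts) in blue and replicate 2 (643 counts) in orange, with exact Clopper-Pearson 95% intervals, or the limit of 3 counts for Mir367. The bars of the 2 libraries are close at each hairpin, from 39.0% at Mir302a to 3.11% at Mir302c in replicate 2.

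Marker lists of other regions and cell types also differed between the libraries, in both directions, and their part in the Mir302 difference was not tested. No marker with a row was at 0 in both libraries. The 6 Hox cluster miRNA genes, which mark hindbrain and trunk, summed to 768 CPM in replicate 1 and 492 CPM in replicate 2, with 3 of 5 tested lower and 0 higher, and Mir10a, the highest, at 441 and 271 CPM. Mir122 of hepatocytes was at 97.8 and 64.9 CPM and was called lower. The 7 epithelial genes went the other way, from 3220 to 3889 CPM, with 6 called higher and 1 lower, led by Mir429 at 1402 ± 328 CPM (SD, n = 2). The 4 blood genes with a row summed to 403 and 392 CPM, with 2 higher and 1 lower and Mir451a, which shares 22 bases with another gene, the highest at 195.5 ± 60.9 CPM. The 4 muscle genes summed to 46.2 and 38.2 CPM, with 1 higher and 1 lower, led by Mir206 at 22.01 ± 4.58 CPM. Among the 10 neural genes, 3 were higher and 2 lower. All these calls are by the exact binomial test, which called 45.3% of all tested genes, so the neural and muscle counts are near that background, and the edgeR test called none of them. In bulk tissue, fewer cells that express a miRNA and less of it per cell cannot be told apart.

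The genes whose levels in both libraries were nearest to those of Mir302a were Mir412, Mir668 and Mir122. Nearness was the Euclidean distance in log2(CPM + 1) over the 2 libraries, and it was 0.02 for Mir412, 0.18 for Mir668 and 0.18 for Mir122. Mir412 had 549 and 255 counts, nearly those of Mir302a.

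Of 5 miRNAs that are known to repress pluripotency factors, 4 were present, and Mir296 and Mir134 were above every member in both libraries. Mir296 was highest at 4160 CPM in replicate 1 and 4387 CPM in replicate 2, and Mir134 was at 611 and 437 CPM. Mir145a, a repressor of core pluripotency factors that is also a smooth muscle miRNA, was at 67.2 and 83.0 CPM, and Mir34a, a target of p53, at 66.0 and 66.6 CPM. Both were below Mir302a and Mir302d in replicate 1 and above them in replicate 2. Mir470 had no count in either library. By the exact binomial test Mir296 and Mir145a were called higher in replicate 2 and Mir134 lower, while Mir34a was not called, with an adjusted p of 0.315. That 3 of 4 tested genes were called stands against 45.3% of all tested genes, and edgeR's exact test gave all 4 an adjusted p of 1.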

How the data were processed

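The authors deposited 1 table of raw read counts per miRNA gene for each library, with a column that ignores strand and a column for each strand. Per the deposited file descriptions, the assembly was mm10 and the annotation M4. Aligner, counter and trimming were not given in the sources used here. Of the strand columns, that with the larger total was used as the gene strand, and it held 98.1% and 98.3% of gene counts. Rows of unassigned reads, 62.1% of reads in replicate 1 and 61.4% in replicate 2, stayed out of totals and tests. Symbols and positions came from GENCODE M21 by gene identifier (1894 of 1973 matched), mature sequences from RefSeq (GRCm38.p6).

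Genes whose counts summed to 10 or more were tested with a two-sided exact binomial test, with totals scaled by TMM over these genes (edgeR 4.0.16, R 4.3.3), Benjamini-Hochberg adjustment and a threshold of 0.05. Log2 ratios add 0.5 to each count. edgeR's quasi-likelihood test needs 2 groups. The alternative edgeR test used a biological coefficient of variation of 18.1% from 438 genes. DESeq2 1.42.0 gave size factors. The binomial script was tested on simulated counts that held counting error only, so that check does not cover spread between pools. Named genes are the members, the other Mir290 genes, the 5 highest carriers of the Mir302 and Mir367 seeds, the 3 genes nearest to Mir302a, the neural and repressor lists, and the top gene of each other list; others were chosen after their values were seen. The members and lists were chosen with earlier results of these data known. The labels give separate biosample records for the pools and a shared donor record. The binomial p-values cover counting error only, and the edgeR p-values the spread between these libraries, which may be partly technical.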

Additional observations from a re-analysis of the deposited data

How the results depend on the processing

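With all reads of the table as the denominator, the summed level was 84.2 per 1000000 reads for the Mir302 to Mir367 members and 2.07 for the Mir290 to Mir295 members. That follows from the larger denominator. The TMM-scaled denominator and the unstranded column moved both sums by less than 1 SD. Each replicate alone gave 155 to 295 CPM for the first cluster and 5.29 to 5.73 CPM for the second. Of the 4 calls, all were kept with unscaled totals, with DESeq2 size factors and with the unstranded column. With no filter on the summed count the number was 3, since the adjusted p of Mir302c was 0.069, and with a filter at 100 it was 3, since Mir302c was not tested. The edgeR exact test with a common dispersion gave 0 calls. The log2 ratio of Mir294, which was never called, was -0.058 with unscaled totals and 0.09 with TMM. The share of the AAGUGCU counts held by Mir302b and Mir302d was 98.2% in each replicate alone. The alternatives left out genes that share a long stretch with another miRNA gene, or used the unstranded column. Neither could change this share, since its carriers share no such stretch and had no read on the opposite strand. The share of Mir367 among the AUUGCAC counts was 0% in every setting. That value was fixed in advance, because Mir367 had no count on either strand.

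No paired analysis was possible because the 2 libraries form a single group. Depth limits the Mir290 members most: at counts of 0 to 15 the order of Mir293 and Mir294 is not resolved, and the spread between pools rests on 2 values.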

Other observations

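A hairpin at 0 beside abundant neighbours was uncommon but not limited to Mir367. Of 44 genomic clusters whose highest gene was at or above the mean level of Mir302a, 4 held a gene at 0 in both libraries that shares no stretch of 22 bases with another miRNA gene, in all 4 of 128 such genes. The others were the clusters from Mir770 to Mir432 and from Mir379 to Mir3072, both of the imprinted Dlk1-Dio3 region, and the pair of Gm27320 and Mir328. These clusters were looked up after the value of Mir367 was seen. The log2 ratios within the Mir302 cluster spanned 0.18, where the median span of 16 clusters with at least 3 tested genes was 0.61. In 1 other cluster the span was less, and that from Mir429 to Mir200b also spanned 0.18. A span tends to grow with the number of genes and with low counts, for which these values were not adjusted. The Mir302 cluster had 4 tested genes, and that from Mir379 to Mir3072 had 31.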
